A study of Mus musculus with 13 samples.

Results

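Cytosolic ribosomal protein genes encode the proteins of the ribosome, the particle that reads mRNA into protein. The 84 genes described here were chosen by name alone, as rows of the count table whose Ensembl identifier has a mouse symbol of the Rpl or Rps form. Symbols of pseudogenes ending in -ps or beginning with Gm were left out, and no expression value was used. They are 84 of 37991 genes in the table, of which 32919 have a symbol. By symbol, 51 belong to the large subunit (Rpl) and 33 to the small subunit (Rps), and GENCODE annotates 81 as coding and 3 (Rps4l, Rps12l1 and Rpl6l) as pseudogenes. Ribosomal protein genes with other names, such as Rack1, Fau, Rps3a1 and Rpl36al, were counted apart.

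The libraries came from naive B cells purified from the spleens of wild-type C57BL/6 mice aged 6 to 8 weeks. The cells had been stimulated for 24 h with 250 nM CpG ODN 1668, a DNA oligonucleotide that acts through the receptor TLR9, and were caught one by one on a microfluidic chip and photographed. The 5 large cells (C1, C3, E1, E3 and G2) and the 5 small cells (A2, C12, C7, F7 and H1) were the largest and smallest on the chip, and they were sequenced beside 1 diluted bulk library of 24 h cDNA, 1 library of spike-in RNA without cells and 1 library of unstimulated bulk cells at 0 h. No mouse or culture is named for any cell, so each size group is 1 sample, and no p-value or standard error was computed. Where values of single cells are listed, they follow the order C1, E1, E3 and G2 for large cells and A2, C12, C7, F7 and H1 for small cells. The methods left C3 out of the size comparison, and its values are given apart from the other 4 large cells.

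Cell libraries held 3311235 to 6311782 gene counts, the diluted bulk 1740862 and the spike-in library 190. Of 8 B cell markers, 7 were on, by the rule given with the members, in some of the 9 cells and 6 in all 9, and their summed share was 1.14 to 3.54% of gene counts in the 4 large cells and 1.15 to 5.1% in the 5 small cells. Cell C3 stood apart, with 0.392% in these markers and no count of Cd79a or H2-Ab1. All 6 T cell markers were at 0 in the 10 cells, and no myeloid, NK or erythroid marker was on in any of the 9 cells. Of 4 plasma cell markers, 3 were on, each in at most 3 cells. Small cell A2 had 4799 counts of Xbp1, 1010 of Prdm1 and 1293 of Jchain, and small cell C12 had 6895 of Xbp1 and 3480 of Prdm1. Among large cells, E1 had 1911 of Xbp1 and G2 had 4031 of Prdm1. Cell state was not separated from size, and its part in the size comparison was not tested.

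Ribosomal proteins are made from some of the most abundant mRNAs of a growing cell, and each ribosome needs 1 copy of nearly every one of them, with the stalk proteins P1 and P2 as the exception. Many of their mRNAs begin with a C and a run of pyrimidines, the 5′ terminal oligopyrimidine (TOP) tract, through which mTORC1 controls their translation. Naive B cells are small and quiescent, and B cells that respond to a stimulus enlarge before they divide. The mouse genome carries many processed pseudogenes of these genes, copies of the spliced mRNA written back into DNA, and reads from such copies can be hard to assign.

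Start-site windows of a few members are printed here to show what the letters searched for look like at a start, and what stands at the starts of 3 paralogs. They come from the RefSeq promoter table of build GRCm38.p6, which held 61 of the 84 members in 73 promoters. Each window runs from 10 bases before the annotated start to 20 bases after it, on the strand of the gene. Capitals mark the letters CTTTC or CTTCC, which can overlap by 1 base.
Rplp2 (chromosome 7, a stalk protein): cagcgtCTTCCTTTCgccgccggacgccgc
Rps27 (chromosome 3): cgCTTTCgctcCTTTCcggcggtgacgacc
Rpl27a (chromosome 7): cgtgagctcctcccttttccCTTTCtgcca
Rpl15 (chromosome 14): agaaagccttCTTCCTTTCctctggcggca
Rpl22l1 (chromosome 3, paralog of Rpl22): gcgcaagcccgttctCTTCCcacggctgca
Rps27l (chromosome 9, paralog of Rps27, first of its 2 listed starts): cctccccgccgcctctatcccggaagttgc
Rpl7l1 (chromosome 17, paralog of Rpl7): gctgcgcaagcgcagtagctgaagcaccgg
The first 4 windows were picked because they hold CTTTC, which most member windows lack. On the gene strand, CTTTC stood in 15 of the 73 member windows (20.5%), against 3.74% of all 32851 windows of the same length. With both strands searched, it stood in 21.9% of member windows and 7.31% of all. CTTCC was found on the gene strand in 19.2% of member windows and 6.36% of all, and on both strands in 30.1% and 13.5%. Over the whole 300 bases, CCGGAAG, whose reverse complement contains CTTCC, stood on either strand in 35.6% of member promoters and 8.86% of all. TATAAA stood on either strand in 9.59% of member promoters and 13.6% of all. Annotated starts can lie some bases away from the true start, and these letters are a description and not binding sites.

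The 84 genes together took 4.43% (4.41 to 4.45) of gene counts in large cell C1, 5.3% (5.29 to 5.32) in E1, 4.78% (4.76 to 4.79) in E3 and 7.63% (7.61 to 7.65) in G2, with exact binomial 95% intervals in parentheses. In small cells the share was 4.8% (4.78 to 4.82) in A2, 6.7% (6.68 to 6.72) in C12, 7.34% (7.31 to 7.37) in C7, 6.03% (6.01 to 6.05) in F7 and 7.19% (7.17 to 7.21) in H1. Large cell C3, apart from the others, had 3.4% (3.39 to 3.42), and the diluted bulk had 9.23% (9.19 to 9.27). These intervals cover counting error only, since PCR reads without molecular identifiers are not independent molecules.

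The share was lower in most large cells than in most small cells, but the groups overlapped: G2 was the highest of the 9 cells, A2 was the lowest small cell, and only C1 and E3 lay below every small cell, with the interval of E3 overlapping that of A2. The medians were 5.04% for the 4 large cells and 6.70% for the 5 small cells, a ratio of 0.752. With counts summed over cells, the shares were 5.59% for large cells and 6.35% for small cells. Mitochondrially encoded genes took 2.56, 2.31, 4.28 and 4.11% of gene counts in large cells and 1.98, 2.4, 5.58, 1.26 and 4.77% in small cells, and immunoglobulin genes took 0.785, 3.13, 1.44 and 2.43% in large cells and 6.88, 4.67, 1.9, 1.44 and 1.56% in small cells. The share ratio was 0.759 without the mitochondrial genes and 0.734 without the immunoglobulin genes, and the part of these genes in the result was not tested further. In the spike-in library without cells, 11 of 190 gene counts fell in the members.

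**Figure D1:**
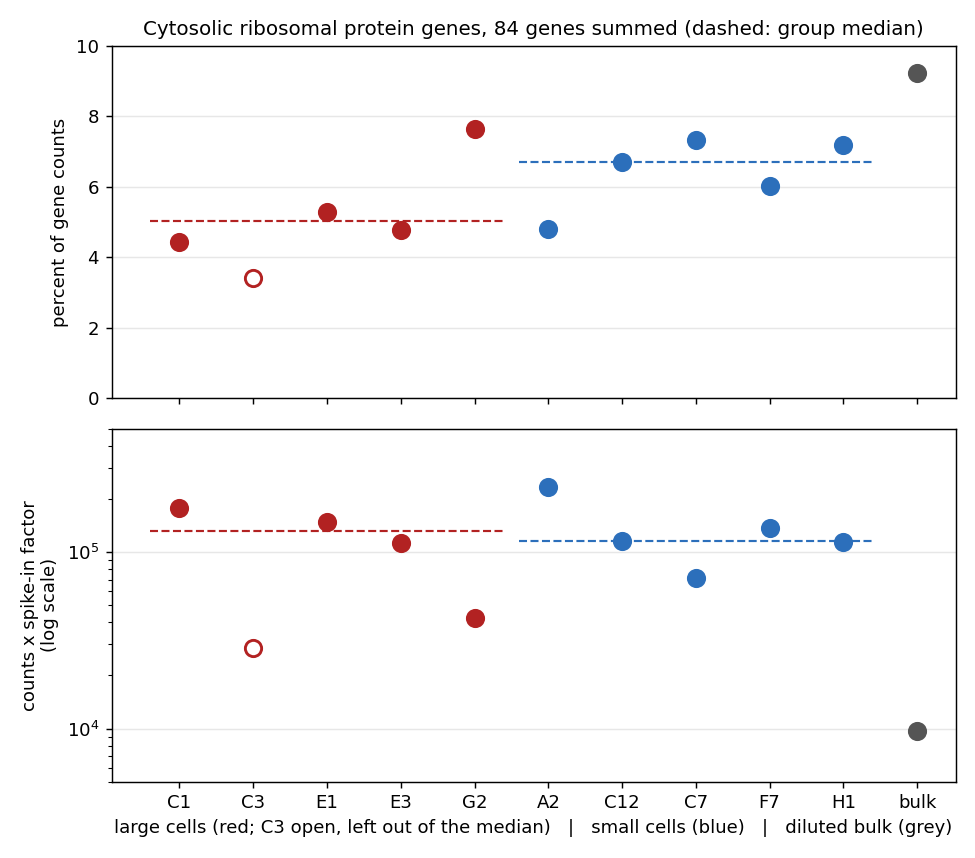
Share of gene counts (top, percent) and spike-in normalised counts (bottom, log scale) of the 84 ribosomal protein genes in 5 large cells, 5 small cells and the diluted bulk, 1 point per library. Dashed lines are group medians without C3 (open point). The top panel shows medians of 5.04% for large and 6.70% for small cells with overlapping points, and the bulk at 9.23% above every cell.

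Spike-in normalisation, the count multiplied by the factor the authors fitted to the added RNA, estimates RNA per cell rather than share. On that scale the ribosomal protein genes summed to 179266, 148816, 113535 and 42547 in large cells, against 233765, 116089.7, 71816, 137974 and 114329 in small cells. The groups again overlapped, with medians of 131175 in large cells and 116089.7 in small cells, a ratio of 1.13. The means went the other way, at 121041 in large cells and 134795 in small cells. With C3 kept, the ratio of medians was 0.978. For the total over all genes, the ratio of medians was 1.50 on the same scale and 1.37 with C3 kept. The means of that total were 2445966 in large cells and 2291387 in small cells. The direction for the members thus depends on the summary used. Cell C3 had 28513 and the diluted bulk 9669.7. The order of cells differed between the scales: G2, with the highest share, had the lowest normalised sum of the 9 cells. Its unscaled sum of 426512 was the highest of the 9 and its factor of 0.0998 the lowest, against 1 in C1. The low normalised sum of G2 thus follows from its factor. Whether that factor reflects less RNA in the cell was not tested.

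A gene was called on in a cell when its adjusted count, the count times the factor plus 100, was above 300. By this rule, 78 of the 84 members passed in 1 or more of the 9 cells, and 55 of the 78 were on in all 9. Of all 6435 genes that passed in 1 or more cells, 2.72% were on in all 9, and the members made up 31.4% of those 175 genes. A read of any number was found in all 9 cells for 76 of the 78, against 16.1% of all such genes. A gene needs 2005 counts to be on in G2 and 677 in C7, against 200 in C1, and 22 of the 78 members were off in G2 and 14 in C7.

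The score is the share of large cells in which a gene is on minus the share of small cells, and a gene is called at 0.5 or more, or at -0.5 or less. No member was called higher, against 5.83% of the 6435 genes, and no member was called lower, against 1.88%. The score was exactly 0 for 55 members, above 0 for 4 and below 0 for 19. The 9 members at -0.25 were off in G2 alone, among them Rpl22, Rpl26, Rpl30 and Rps10. The highest score was that of Rps27l, 0.35 (0.6 without G2, 0.5 without A2 and 0.5 without F7, each a call). A gene that is on in all 9 cells has a score of 0 whatever its level, so these counts bear on members near the threshold only.

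The log2 ratio of the mean adjusted count of large cells over that of small cells had a median of -0.11 over the 78 members and of 0.02 over all 6435 genes. Of the members, 52 were below 0 (66.7%), against 49.3% of all genes, and the 46 large-subunit and 32 small-subunit members had medians of -0.10 and -0.14. The members ran only from -1.35 to 0.32, while all genes ran from -7.26 to 5.38. The median moved to 0.12 without large cell G2 and to 0.15 without small cell A2, and the median of all genes then moved to 0.24 and 0.53. Without large cell C1 the members' median was -0.26 and that of all genes -0.38, so the order of the medians turned as well.

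**Figure D2:**
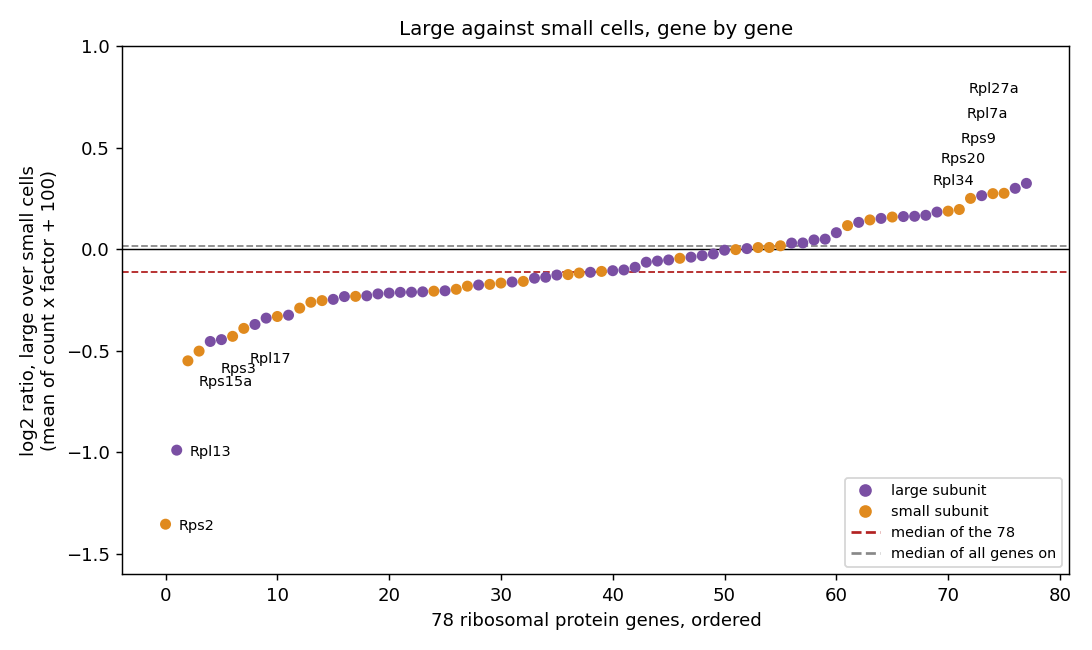
Log2 ratio of the mean adjusted count, 4 large cells over 5 small cells, for the 78 members on in at least 1 of these cells, ordered from lowest to highest, 1 point per gene (purple, large subunit; orange, small subunit; dashed lines, medians of members and of all genes). Most points lie between -0.5 and 0.3 around a median of -0.11, and Rps2 (-1.35) and Rpl13 (-0.99) lie apart at the low end.

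Rps2, a protein near the mRNA entry channel of the small subunit, had the lowest ratio. It took 574, 146, 119.5 and 625 CPM (counts scaled to 1000000 gene counts a library) in large cells C1, E1, E3 and G2, against 1236, 202, 1353, 555 and 1609.6 in small cells A2, C12, C7, F7 and H1. Cells of both sizes were spread widely, E1, E3 and C12 forming a low set and A2, C7 and H1 a high one, and the sizes overlapped. The log2 ratio was -1.35, and it kept its sign with each cell left out, between -2.43 and -0.65. Rps2 was also among the most variable members, with a coefficient of variation of 75.1% in its percent of ribosomal protein counts, and C3 had 256 CPM.

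Rpl13, a large-subunit protein, had 571, 327, 432 and 1611 CPM in large cells, against 912, 1443, 1264, 875 and 1947 in small cells. Large cells C1, E1 and E3 lay below every small cell and G2 lay among them. Its log2 ratio was -0.99, between -1.39 and -0.73 with each cell left out. The next lowest were Rps15a (-0.55), Rps3 (-0.50) and Rpl17 (-0.45), all of the same sign in every one of the 9 comparisons with a cell left out. Rps3, which sits at the mRNA entry and also has roles in DNA repair, had 2014, 2412, 1591 and 3373 CPM in large cells and 2453, 3858, 3211, 3736 and 3968 in small cells, and its groups overlapped through G2.

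Rps15a, a small-subunit protein, had 197, 245, 120.0 and 646 CPM in large cells, against 329.8, 500.1, 294, 277 and 463 in small cells, and was highest in G2. Rpl17, which lines the exit tunnel, had 188, 204, 329 and 230.5 in large cells, against 236, 582, 490.1, 260.2 and 501 in small cells. For both genes the size groups overlapped, and the bulk had 500.3 of Rps15a and 648 of Rpl17.

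At the other end were Rpl27a (0.32), Rpl7a (0.30), Rps9 (0.27), Rps20 (0.27) and Rpl34 (0.26). Rpl7a had 722, 969.9, 780.0 and 561 CPM in large cells, against 601, 781, 900.0, 657 and 739 in small cells, and the groups overlapped throughout. Rpl27a had 208, 249, 131 and 231 in large cells and 137, 139, 151, 195 and 237 in small cells. Rps9, a small-subunit protein, had 1509, 1373, 1512 and 2015 in large cells and 1171, 1114, 1963, 1216 and 1722 in small cells, with G2 and C7 the highest cells. Rps20 had 504, 1315, 807 and 1606 in large cells and 767, 629, 741, 950.1 and 647 in small cells, lowest in C1 and highest in G2, both large. Rpl34 had 382, 439.8, 585 and 418 in large cells and 309.8, 476, 474, 396 and 501 in small cells, with A2 the lowest cell. The signs of Rpl27a, Rpl7a and Rpl34 held with each cell left out, and those of Rps9 and Rps20 did not. Only 11 of the 34 named members that were on kept their sign in all 9 such comparisons. In share of counts, 1 of the 78 members, Rpl26, was lower in every one of the 4 large cells than in every small cell, against a background of 0.373%, and none was higher in every large cell, against 0.435%. Rpl26 had 311, 306, 252 and 235 CPM in large cells and 351, 316, 343, 422 and 402 in small cells, with 311 in C1 just below 316 in C12. Its copy Gm10136 held 493 counts in E3 and at most 3 in the other cells, and with its counts added E3 stood at 334 CPM, above C12 at 316, and the groups overlapped. That sum was made after the values were seen.

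Levels between genes were compared per kilobase of a representative transcript, as the mean over 9 cells of CPM per kb. In the large subunit the highest were Rpl4 (3106), Rpl41 (3038) and Rpl32 (2775), and among the highest in the small subunit were Rps14 (3425) and Rps18 (2331). Rpl4, which reaches into the exit tunnel of the ribosome, had 5025, 4395, 4354 and 2247 CPM in large cells, 4127, 3940.5, 6849, 6959.7 and 5090.1 in small cells, 1131 in C3 and 10548 in the diluted bulk. It was lowest in G2 among the 9 cells. Rpl32 ran the other way, with 673, 996, 1022 and 2437 in large cells and 843, 1609.6, 2114, 1105 and 2111 in small cells, highest in G2. Rpl41, the shortest ribosomal protein, had 916, 1267, 1314 and 1684 CPM in large cells and 1037, 1631, 1294, 1255 and 1552 in small cells. Rps14, which lies on the platform of the small subunit, had 1218, 1995, 1677 and 3482 CPM in large cells and 1361, 1929, 2800.5, 1946 and 1992 in small cells. Rps18 had 781, 1311, 788 and 1289.5 in large cells and 889, 2089, 1749, 1098 and 1753 in small cells. The sizes overlapped for each of these genes. Rps20 was low per kb (239) on a representative transcript of 3706 bases, which sets its place there. Other members also had long representative transcripts, such as Rpl5 (2045 bases) and Rps3 (1908 bases). The ranks per kb, the highest included, thus depend on the transcript chosen.

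At the bottom were 6 members that were on in none of the 9 cells. Rpl3l, a form of Rpl3 known from skeletal and heart muscle, and Rpl10l and Rpl39l, known from testis, had no count in any of the 10 cells or the bulk. By counting error alone, a count of 0 allows a share of up to 9.06e-05% in the shallowest cell library. The annotated pseudogenes Rps12l1 and Rpl6l had at most 0.604 and 8.15 CPM in a cell. The sixth was Rpl23a, a coding gene whose protein lies at the exit of the tunnel, and it is described with its copy after the paralogs.

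Within the ribosomal protein pool, that is as a percent of all ribosomal protein counts of a library, members varied less than in share of all gene counts. Dividing by the members' own sum takes out variation that they share. No other gene set was scaled to its own sum, so this drop is not particular to the members. The coefficient of variation over the 9 cells had a median of 23.7% for the 79 members with a mean of at least 100 counts. In share of all gene counts the median was 30.6% for these members, and 78 of the 79 lay below the median of 149% for all genes. These were the 5798 genes with a mean of at least 100 counts. In count, the median member stood at percentile 97.8 to 98.8 of all genes in the 9 cells. Genes of equal level were not compared, so level and steadiness were not separated. The steadiest were Rpl21 (10.8%), Rpl41 (12.5%), Rpl5 (12.5%), Rps6 (12.5%) and Rplp0 (12.6%). Rpl21 took 0.765, 0.764, 0.702 and 0.779% of ribosomal protein counts in large cells and 0.85, 0.616, 0.735, 0.809 and 0.619% in small cells, and the sizes overlapped. Rpl5, which carries 5S rRNA into the large subunit, took 0.914, 0.958, 0.901 and 0.754% in large cells and 0.954, 0.777, 0.753, 0.669 and 0.788% in small cells. Rps6, the substrate of S6 kinase, took 1.33, 1.1, 1.01 and 1.03% in large cells and 1.23, 1.26, 0.951, 1.34 and 1.12% in small cells. No member's percent of the pool separated large from small cells. In share of gene counts, only 0.373% of all genes were lower and 0.435% higher in every large cell. A count of 0 among the members is near those shares.

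Large-subunit genes made up 53.9 to 60.1% of ribosomal protein counts in the 9 cells, 50.2% in C3 and 60.5% in the diluted bulk. The stalk proteins Rplp0, Rplp1 and Rplp2, which bind elongation factors, summed to 0.264, 0.387, 0.305 and 0.585% of gene counts in large cells, against 0.288, 0.508, 0.487, 0.377 and 0.464% in small cells. Rplp0 had 1736, 2904, 2248 and 3846 CPM in large cells and 1941, 3759, 3413, 2553 and 3381 in small cells. Rplp1 had 399, 516, 494 and 1344 in large cells and 534, 778, 1162, 558 and 663 in small cells, and was highest in G2 among the large cells and in C7 among the small cells. Rplp2 had 507, 455, 311 and 659 in large cells and 399.9, 545, 299, 660.4 and 597 in small cells, and was lowest in C7 and E3. The 4 members whose proteins bind Mdm2 when ribosome assembly is disturbed, Rpl5, Rpl11, Rpl23 and Rpl26, were all on, none was called, and they had log2 ratios of 0.00, -0.10, 0.03 and -0.21.

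Cell C3 differed from the 9 others in the make-up of its pool. Spearman's rho of the percent of the pool over the 78 members was 0.82 to 0.95 between pairs of the 9 cells, 0.68 to 0.73 between C3 and each of them, and 0.87 to 0.94 between each of them and the diluted bulk. These correlations are across genes, which are not independent replicates, and the counts share the same gene lengths and copies. In share of gene counts, C3 lay below all 9 cells for 51 of the 78 members, against 8.11% of all genes, and above them for 2, against 7.2%. Within the pool, where no share over all genes was computed, 18 members were above all 9 cells and 27 below. Small-subunit genes were above in 13 of 32 and below in 10, and large-subunit genes were above in 5 of 46 and below in 17.

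Relative to the median of the 9 cells, the members highest in the pool of C3 were Rps27l, Rpl27a and Rps19. Rpl27a, a large-subunit protein, took 907 CPM in C3 and 131 to 249 in the 9 other cells. Rps19, the gene most often mutated in Diamond-Blackfan anaemia in humans, took 6.24% of ribosomal protein counts in C3 and 1.95 to 2.98% in the 9 others. Rpl22l1, Rpl26, Rpl10a, Rps20, Rpl29 and Rps21 were the lowest there. Rpl26 had 39 counts in C3 and 1137 to 2611 in the 9 others, and Rpl10a had 63 in C3 and 747 to 2327 in the others. C3 had 4129333 gene counts, within the range of the other cells, but reads of only 3519 genes, against 4113 to 8656 in the 9 others. The study's methods omitted it for its lower correlation with the average of all cells and with the bulk control. The low B cell markers moved with these values. The part of the few genes read and of the low markers in the result was not tested.

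**Figure D3:**
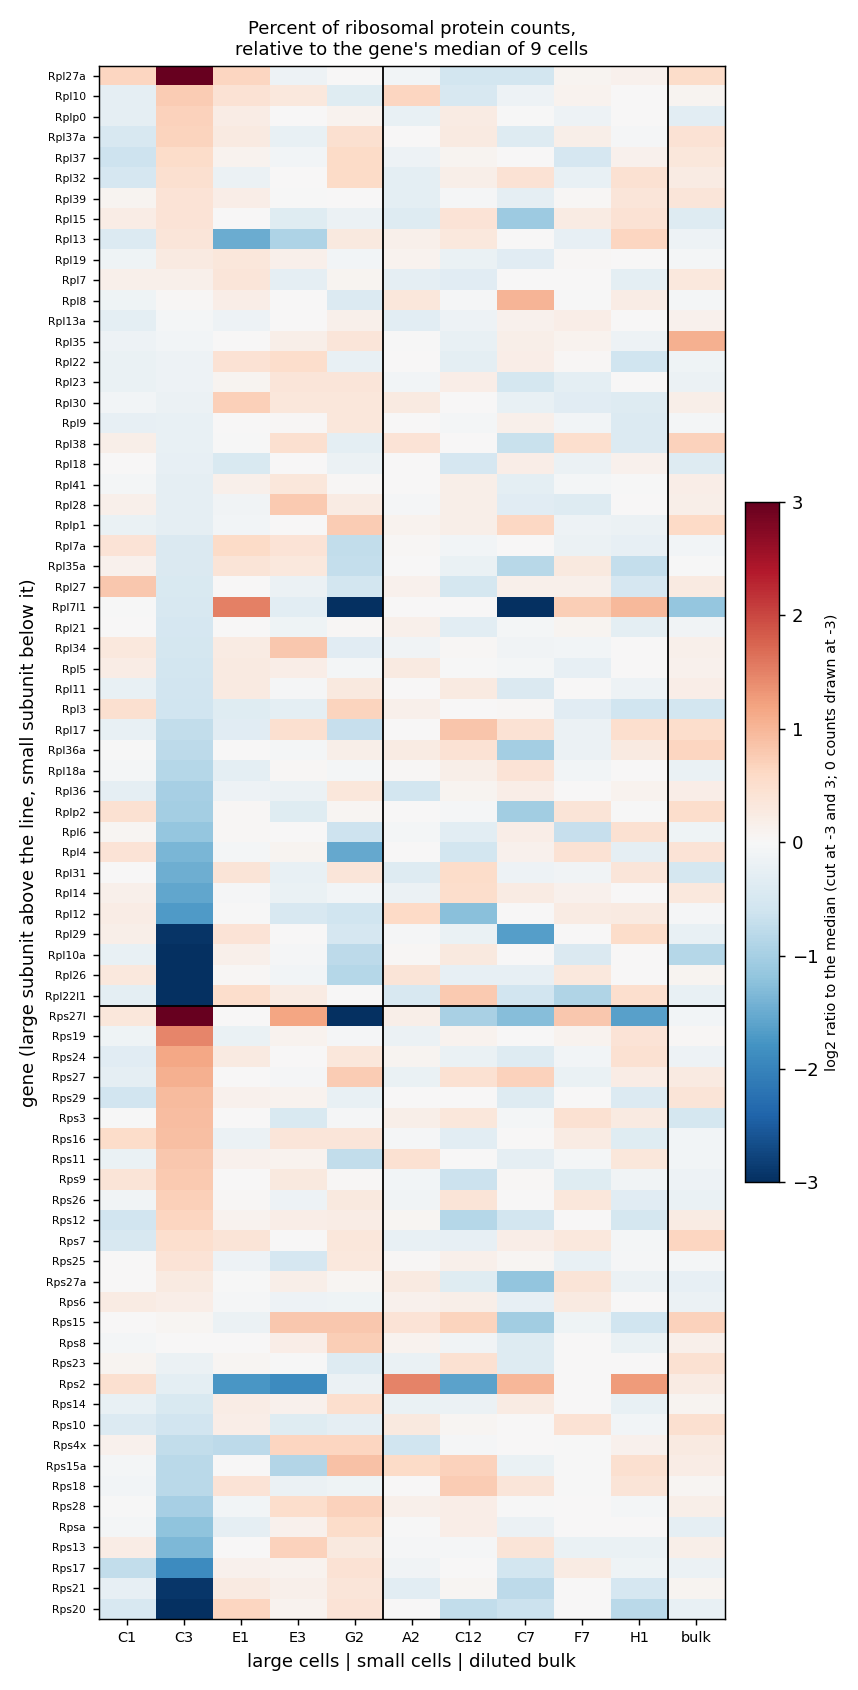
Percent of ribosomal protein counts of 76 members (rows) in 5 large cells, 5 small cells and the diluted bulk (columns), as log2 ratio to the gene's median over 9 cells, red above and blue below, with values beyond 3 in either direction drawn at 3. Most squares are pale, while C3 runs from dark red (Rpl27a, Rps27l) to dark blue (Rps20, Rpl26). Rps2, Rpl7l1 and Rps27l vary among the other cells too.

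The most variable members among the 9 cells were Rps4l, Rpl7l1, Rps27l, Rps2 and Rps15, of which 3 are paralogs. Stretches of the coding sequence of Rps27l, Rpl7l1 and Rpl22l1 and of their parents are printed to show how far apart the pairs are. They are the 90 bases without gaps with the most mismatches, from GENCODE transcripts of GRCm38, and capitals mark the bases that differ.
Rps27l (chromosome 9): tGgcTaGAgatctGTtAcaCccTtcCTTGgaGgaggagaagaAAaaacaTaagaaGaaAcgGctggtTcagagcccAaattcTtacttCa
Rps27 (chromosome 3): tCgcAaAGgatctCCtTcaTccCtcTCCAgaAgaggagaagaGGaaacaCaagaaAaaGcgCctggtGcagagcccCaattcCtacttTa
Rpl7l1 (chromosome 17): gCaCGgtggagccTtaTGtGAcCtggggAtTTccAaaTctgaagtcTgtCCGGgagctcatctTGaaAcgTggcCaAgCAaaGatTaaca
Rpl7 (chromosome 1): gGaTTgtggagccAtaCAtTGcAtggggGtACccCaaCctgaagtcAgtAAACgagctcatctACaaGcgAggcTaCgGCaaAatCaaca
Rpl22l1 (chromosome 3): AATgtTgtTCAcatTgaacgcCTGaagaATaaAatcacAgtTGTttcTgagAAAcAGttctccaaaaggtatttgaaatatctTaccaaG
Rpl22 (chromosome 4): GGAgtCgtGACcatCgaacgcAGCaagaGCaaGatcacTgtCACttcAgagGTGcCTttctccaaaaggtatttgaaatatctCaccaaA
Over the aligned part, Rps27l matched Rps27 at 76.3% of 253 bases, Rpl7l1 matched Rpl7 at 67.4% of 187 bases, and Rpl22l1 matched Rpl22 at 75.5% of 294 bases. No run of 50 bases of these paralogs occurred in the parent transcript.

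Rps27l, which in human cells is a target of p53, had 134, 127, 262 and 0.179 CPM in large cells, against 131, 82.4, 72.5, 253 and 55.7 in small cells. It was nearly missing in G2, with 1 count of 5588852. The size groups overlapped, and the log2 ratio was 0.25. In C3 it had 1143 CPM, above its parent Rps27. Per 100 counts of Rps27, Rps27l had 0.0192 to 77.5 in the 4 large cells, 8.52 to 66.4 in the 5 small cells, 222 in C3 and 26.4 in the bulk. Rps27 itself had 267, 382, 337 and 929.7 CPM in large cells, 301, 660.2, 851, 381 and 602 in small cells and 514 in C3, so the parent was present in every cell. Of the 50-base runs of Rps27, 98.6% were shared with other genes, so its counts are uncertain.

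Rpl7l1, a nucleolar protein of ribosome assembly, had 280.0, 960.4, 244 and 0 CPM in large cells, against 310.0, 428, 28.7, 639 and 906 in small cells. G2 and C7 had reads of 4430 and 4113 genes, the fewest of the 9 cells. Rpl7l1 was at 0 in G2, which by counting error alone allows a share of up to 5.37e-05%, and low in C7, with 95 counts. Its parent Rpl7 had 1408, 1953, 1143 and 2328 in large cells and 1137, 1527, 2110.1, 1748 and 1693 in small cells, and was highest in G2. Rpl22l1 had 64.8, 138, 102 and 137 CPM in large cells and 62.0, 207, 88.5, 58.0 and 184 in small cells, and Rpl22 had 145, 269, 257 and 245 in large cells and 179, 203, 315, 229.8 and 176 in small cells. In C12 and H1 the paralog equalled its parent, with 102 and 104 counts per 100 of Rpl22, and in the 7 other cells it had 25.2 to 55.9. Rpl22l1 had no count in C3, where Rpl22 had 115 CPM.

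Rps4l was read in 2 of the 9 cells, with 884 counts in large cell E3 and 342 in small cell A2 and none in the 7 others, in C3 or in the bulk. Its X-linked parent Rps4x had 600.3, 379.6, 922 and 1472 CPM in large cells and 395, 813, 911, 737 and 979 in small cells, and C3 had 253. Rps15, a small-subunit protein that is not a paralog, had 293, 310.2, 557 and 889.6 in large cells and 421, 699, 236, 363 and 312 in small cells. It was high in G2, C12 and E3 and lowest in C7. The parents of the 3 paralogs with no count were all present. Rpl3 had 2128, 1417, 1334 and 4136 in large cells and 1842, 2301, 2562, 1630.2 and 1642 in small cells, Rpl10 had 424, 832, 684 and 689 in large cells and 871, 556, 761, 745 and 829 in small cells, and Rpl39 had 113, 146, 113 and 183 in large cells and 93.2, 155, 146, 149 and 219.9 in small cells. Their log2 ratios were 0.05, -0.23 and -0.01, and the sizes overlapped for all of them.

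**Figure D4:**
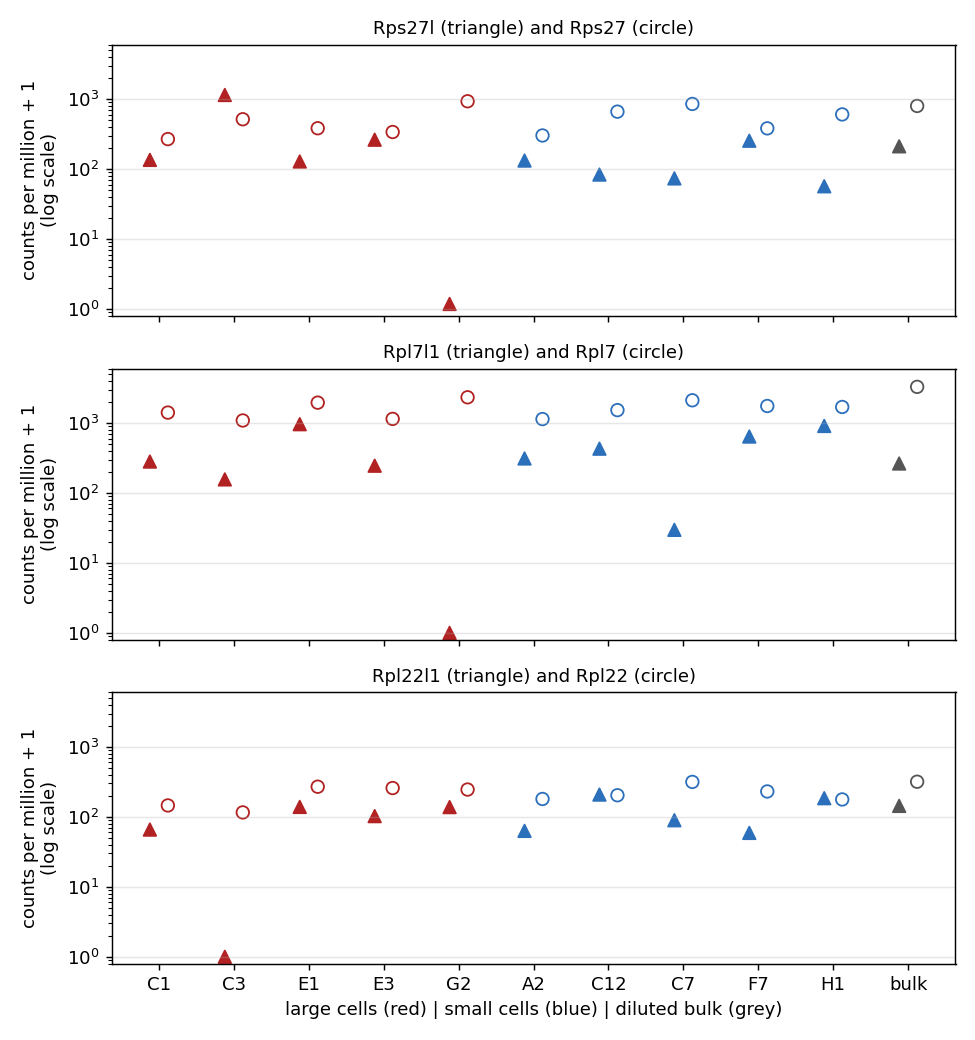
CPM plus 1 (log scale) of 3 paralogs (triangles) and their parents (circles) in 5 large cells (red), 5 small cells (blue) and the diluted bulk (grey), 1 point per library. The circles stay in a narrow band, while Rps27l and Rpl7l1 drop out in G2, Rpl22l1 drops out in C3, and Rps27l is above Rps27 in C3.

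Most members share sequence with other annotated genes, pseudogene copies among them. The search covered every annotated gene and not pseudogenes alone. Rps16, for one, shared a run with 89 genes and had 6 pseudogene rows. A run of 50 bases of the transcript was found in another annotated gene for 78 of the 81 coding members, and the median member shared 55.5% of its 50-base runs. Over 90% was shared by 6 members, and Rpl3l and Rpl39l were among those that shared none. In the count table, 1171 rows were pseudogenes or copies whose sequence was closest to a ribosomal protein gene, of which 693 had a count in at least 1 of the 10 cells. They held 3.24 to 4.67 counts per 100 member counts in the cells and 2.64 in the bulk. How the authors' counting treated reads that match several places is not stated, so members with copies are uncertain. Spearman's rho between CPM per kb and the percent of shared runs was 0.03 over the 81 coding members, as a description.

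Of 46 rows with at least 500 counts over the 10 cells, 41 did not stand out in one cell, and their median identity to the closest gene was 99.4%. For 26 of these 41 the ratio to the gene varied by at most 3 times over the 10 cells. Rpl14-ps1 had 3.84 to 6.38 counts per 100 of Rpl14, and Rpl3-ps1 had 5.30 to 7.63 per 100 of Rpl3. The extreme case was Rpl23a. Its own row held 101, 126, 139 and 165 counts in large cells, 140, 168, 95, 149 and 190 in small cells, 25 in C3 and 162 in the bulk. The row of the copy Gm10132 held 192, 309, 210 and 914 counts in large cells, 278, 717, 374, 352 and 535 in small cells, 142 in C3 and 211 in the bulk. The copy exceeded the gene in every library, and it was the single row of the 41 to do so in all 10 cells. Rpl35 was similar, with 71.9 to 115 counts of Gm10269 per 100 of its own.

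Pairs of gene and copy are printed to show why such reads are hard to assign, and where they are not. Each pair is the stretch of 90 coding bases without gaps that has the most mismatches (the middle one of equals), from GENCODE transcripts of GRCm38, with differing bases in capitals.
Gm10132 (chromosome 14): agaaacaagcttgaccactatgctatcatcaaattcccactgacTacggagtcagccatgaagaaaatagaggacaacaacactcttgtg
Rpl23a (chromosome 11): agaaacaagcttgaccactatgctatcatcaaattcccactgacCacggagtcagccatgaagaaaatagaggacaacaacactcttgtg
Rpl19-ps1 (chromosome 1): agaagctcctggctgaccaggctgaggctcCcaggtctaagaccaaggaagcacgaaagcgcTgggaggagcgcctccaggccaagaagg
Rpl19 (chromosome 11): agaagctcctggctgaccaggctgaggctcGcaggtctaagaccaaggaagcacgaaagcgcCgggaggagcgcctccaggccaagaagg
Gm11737 (chromosome 11): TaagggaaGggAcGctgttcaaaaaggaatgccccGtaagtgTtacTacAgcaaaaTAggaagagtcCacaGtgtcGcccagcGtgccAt
Rpl21 (chromosome 5): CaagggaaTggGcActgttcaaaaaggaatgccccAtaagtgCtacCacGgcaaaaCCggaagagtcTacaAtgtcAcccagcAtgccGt
Gm10132 had 1 mismatch to the coding sequence of Rpl23a over 468 bases, and 88.1% of its 50-base runs were identical to it. Rpl19-ps1 had 5 mismatches to Rpl19 over 591 bases and 57.2% of its 50-base runs in common. Gm11737 had 52 mismatches to Rpl21 over 392 aligned bases and no run of 50 bases in common.

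A set of 14 pseudogene rows had at least 100 counts in one cell and at least 5 times fewer in each of the 9 others, by a rule chosen after the values were seen. Gm11737 had 1269 counts in large cell E3 and 0 in the other 9 cells and the bulk. Gm10136, a copy of Rpl26, had 493 counts in E3 and at most 3 in the others. Gm13827, a copy of Rps23, had 795 counts in small cell C12 and 101 in A2. Rpl19-ps1 had 525 counts in small cell C7, or 34.2 per 100 of Rpl19, against 10 to 26 counts in the 9 others. Of the 14 rows, 4 were highest in E3, and 7 were at least 95% identical to their gene.

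**Figure D5:**
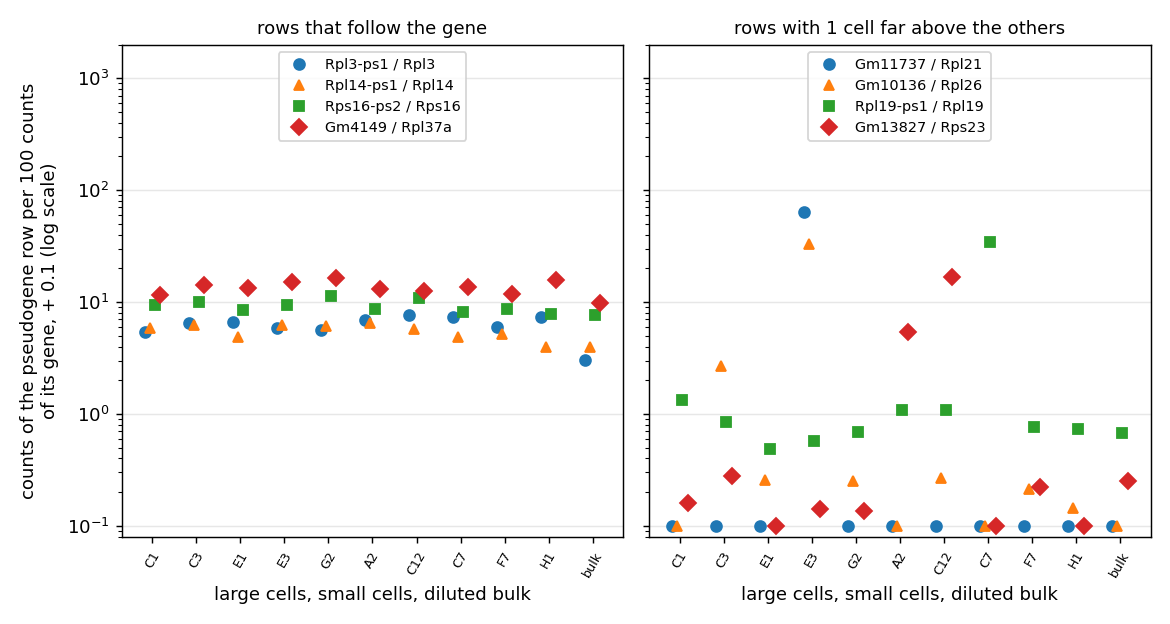
Counts of 8 pseudogene rows per 100 counts of the closest gene, plus 0.1 (log scale), in 5 large cells, 5 small cells and the diluted bulk. On the left, 4 rows stay at an even ratio in every library. On the right, Gm11737 and Gm10136 are high in E3, Rpl19-ps1 in C7 and Gm13827 in C12.

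All 10 cells had a lower ribosomal protein share than the diluted bulk of the same stimulated population. The median of the 9 cells was 6.03%, against 9.23% in the bulk, a ratio of 0.653, and G2, the highest cell, had 7.63%. In share of gene counts, 40 of the 78 members were above all 9 cells in the bulk, against 8.76% of all genes, and none was below all 9, against 2.19%. Rpl4 had 2247 to 6959.7 CPM in the 9 cells, against 10548 in the bulk. Within the pool 65 of the 78 members lay inside the range of the 9 cells, 9 (11.5%) above it and 4 (5.13%) below it. For the pool, the share over all genes was not computed. In share of gene counts it was 8.76% above and 2.19% below, so the members outside the range of the 9 cells are only listed. Members above that range in the bulk were Rps10, Rpl36a, Rps29, Rpl38, Rps7, Rpl35, Rplp2, Rpl39 and Rps12, and those below it were Rps3, Rpl10a, Rplp0 and Rpl31. Rpl35 took 0.101 to 0.155% of the pool in the 9 cells and 0.25% in the bulk, and Rps3 took 3.33 to 6.19% in the 9 cells and 3.18% in the bulk. The bulk was 1 tube library that did not pass through the chip, and a difference between cells and bulk cannot be told apart from that difference in handling. In a bulk library, fewer cells of a type and less RNA per cell cannot be told apart either.

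Other genes of protein synthesis were set beside the members. Ribosomal proteins outside the symbol rule took 0.321, 0.387, 0.361 and 0.456% of gene counts in large cells and 0.326, 0.513, 0.436, 0.402 and 0.615% in small cells. Of the 5 in the table, 4 were on and none was called. All 6 elongation and related factors were on and none was called, at 1.45, 1.22, 1.23 and 1.68% in large cells and 1.29, 1.83, 1.53, 1.87 and 1.22% in small cells. Eef1d had a log2 ratio of 0.70, Eif5a 0.41 and Eef1g -0.22, and both Eef1d and Eif5a were at 0 in G2. With each cell left out, a check added after the values were seen, Eif5a ran from -0.77 (without C1) to 1.39 and Eef1g from -0.59 to 0.09. The 11 other TOP mRNAs were all on, none was called, and their median log2 ratio was 0.40. Largest were Eif4b at 1.77, Tpt1 at 0.90 and Npm1 at 0.82, while Eif3h (-0.39), Eif3f (-0.26) and Naca (-0.05) lay below 0. With each cell left out, Eif4b fell as low as 0.98 (without E1), Tpt1 0.15 (without C1) and Npm1 0.49 (without C1).

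Ribosome assembly genes, the machinery that transcribes ribosomal RNA and builds subunits in the nucleolus, were set beside them too. Of 24 such genes, 21 were on in 1 or more of the 9 cells and none in all 9. By score, 3 were called higher in large cells (Eif6, Polr1e and Polr1a) and 1 lower (Nob1, log2 ratio -0.02), or 14.3% and 4.76% of the 21, against 5.83% and 1.88% of all genes. Their median log2 ratio was 0.39, with Polr1e at 1.75, Polr1b at 1.65 and Polr1a at 1.61. The value of Polr1b turned to -0.91 without C1, which held 1963 of its counts against 2, 0 and 0 in the other large cells, while Polr1e and Polr1a were at 0.97 and 1.12 without C1. The log2 ratio of Nob1 turned to 0.33 without G2. Polr1a, the catalytic subunit of RNA polymerase I, had 642, 919, 349 and 2 counts in large cells, against 154, 0, 0, 2 and 15 in small cells. Their summed share was 0.995, 0.751, 0.472 and 0.181% in large cells and 0.665, 0.327, 0.135, 0.986 and 0.437% in small cells, lowest in C7 and G2. The list of mitochondrial ribosomal proteins, which serve the separate ribosome of mitochondria, held 81 rows by symbol, of which 4 were pseudogene rows and none of these was on. It had 66 on, 7 called higher and 1 lower, or 10.6% and 1.52% of the 66. Their median log2 ratio was 0.31, with Mrpl45 at 1.57 and Mrpl16 at 1.40.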

How the data were processed

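Single-cell libraries were made on a microfluidic chip by SMARTer amplification and Nextera XT tagging. STAR, named in the submitters' processing notes, placed the reads on mouse build m37 with Ensembl genes. Its version, the counting tool, the read length and the treatment of reads with several matches are not given in the sources used here. Per gene, the authors deposited raw whole-number counts, and a deposited ratio per library, the spike-in factor, that scales counts to the added RNA.

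Every comparison used gene counts as deposited. An adjusted count is the count times the factor plus 100, and a gene is on above 300. The score, called at 0.5, and the omission of C3 follow the study's methods. Shares have exact binomial 95% intervals, and a count of 0 allows up to 3 counts. Both cover counting error only, and not transcripts lost before sequencing. No test across cells was run. Gene counts per cell ranged from 3311235 to 6311782, so counting error on the summed shares is small beside the spread between cells. The members and lists were chosen with earlier results of these data known. Named by rule were the 5 members with the highest and the 5 with the lowest log2 ratio, the 3 highest and the 3 lowest per kb in each subunit, the 5 most and 5 least variable members with a mean of at least 100 counts, the paralogs with their parents, the stalk proteins, members at 0, and up to 3 genes of each other list by absolute log2 ratio. Rps19, Rpl26, Rpl10a, Rpl23a, Rpl35 and the pseudogene rows were named after their values were seen.

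Symbols and representative transcripts came from GENCODE vM21 (GRCm38), and promoters from RefSeq (GRCm38.p6). No coordinates are printed, since the counts use another build. Rpl24 and Rpl32l were not analysed here, and some genes that the rule names are not reported here. Pseudogene rows were matched with blastn 2.17.0 (at least 50% aligned, e-value at most 1e-20). Calculations ran in Python 3.11.15 with scipy 1.17.1, pandas 2.3.3 and numpy 2.4.6, and figures in matplotlib 3.10.9. The code of the score was run on simulated counts with strong changes and less spread between cells than here. That run does not show how the score behaves on these data. Of the per-sample columns, 26 were not used. Tables left out hold cell sizes, correlations, and the authors' own scores and gene lists. Alternatives were other scalings and constants, C3 kept, each cell left out, and other sets of genes counted.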

Additional observations from a re-analysis of the deposited data

Results flagged for a closer look

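Of 80 groups of values examined, 9 held a cell whose gap to its nearest neighbour was large against the range of its group. Most groups were values of the named members, many of them named for high, low or variable values in these cells. The rate of about 1 in 20 for unselected values is therefore no measure for these 9. In large cell C3, Rpl27a had 907 CPM, against 131 to 249 in the other 4 large cells, and Rps27l had 1143, against 0.179 to 262. In large cell G2, Rpl32 had 2437 (673 to 1022 in the others), Rplp1 had 1344 (290 to 516), Rps15a had 646 (90.3 to 245) and Rps9 had 2015 (1373 to 1517). Rps4l had 148 CPM in large cell E3 and 65.7 in small cell A2, each against 0 in the other cells of that size. Small cell C7 had 64 members on, against 75 to 78 in the other small cells.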

How the results depend on the processing

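Across 76 alternatives to the main results, 4 changed a value beyond its limits. For shares and log2 ratios the limit was the standard deviation between cells, which is wide. The members' median log2 ratio stayed within it although its sign turned, so the small number of changes does not show that a result is stable. The large-to-small ratio of the ribosomal protein share stayed below 1, at 0.713 to 0.792 with each cell left out, 0.713 with C3 kept and 0.863 with means in place of medians. The ratio of cells to bulk was 0.614 to 0.690 with each cell left out. With each cell left out, the number of members called higher was 0 to 1: Rps27l was called without G2 (score 0.6), without A2 (0.5) and without F7 (0.5). None was called lower. The members' median log2 ratio was -0.27 to 0.15 with each cell left out, -0.08 with equal library totals, -0.31 with C3 kept and 0.07 with each cell scaled to the same ribosomal protein sum, which shifted the median of all genes by 0.10. Chosen after seeing the data, leaving out C1 and A2, the cells with the largest factors, gave 0.763 for the share ratio and -0.02 for the median. Also chosen after seeing the data, counting only pseudogene rows of at least 95% identity gave 3.16 counts per 100 member counts, against 3.70 for all rows. Of 34 named members that were on, 31 kept the sign of their log2 ratio with equal totals and 24 with C3 kept. No paired analysis was possible because no replicate number pairs a large with a small cell and no result came from a test. The count needed to be on, set by the spike-in factor, was 200 in C1 and 2005 in G2. Depth limits the members with few counts, such as Rps12l1 with at most 2 counts in a cell.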

Other observations

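The unstimulated 0 h bulk library had 825441 gene counts, of which 833 (0.101%) fell in the members. Each of the 84 members had between 1 and 34 counts there, including Rpl3l, Rpl10l and Rpl39l, which had none in any cell. In that library 33107 genes (87.1%) had a count, and the members had a median of 4.86 counts per kb of exon, against 5.41 for all 32938 genes with a length. Across genes, Spearman's rho of counts with exon length was 0.857 in the 0 h library and 0.418 in the summed cells, where genes are not independent replicates. Pseudogene rows held 435.5 counts per 100 member counts at 0 h, against 3.24 to 4.67 in the 10 cells. These values are descriptions, and the 0 h library entered no comparison of size or of cells with the diluted bulk.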
